A study of Mus musculus with 16 samples.

Results

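The endoderm regulator loci are the surroundings of 8 mouse genes: the GATA factors Gata4 and Gata6, the SOX factors Sox17 and Sox7, the forkhead factors Foxa1 and Foxa2, the nuclear receptor Hnf4a and the receptor tyrosine kinase Pdgfra. A locus held every accessible region whose centre lay in the gene body or within 100 kb of an annotated transcription start site (TSS) of the gene, in mm10 coordinates with GENCODE M21. The 8 loci held 97 of the 81132 regions in the list, and no region belonged to more than 1 of them. The farthest region inside a window lay 94848 bp from a TSS, at Hnf4a, and the nearest one outside lay 102763 bp away, at Sox7. These distances run to the region's centre, as do those of regions upstream or downstream of a gene or TSS below. A distance from a start to its nearest region runs to the region's edge. Accessibility had been measured by ATAC-seq, in which the transposase Tn5 cuts and tags open chromatin, in 12 libraries of mouse embryonic stem cells. These were 3 replicates each of cells with high SOX2 and high OCT4 (SHOH), high SOX2 and low OCT4 (SHOL), low SOX2 and high OCT4 (SLOH), and both low (SLOL). All 4 populations were sorted in G1 phase from SBROS, a single clone derived from CGR8 cells that carries a SNAP-tag on both Sox2 alleles, a HALO-tag on 1 Oct4 allele and reporters at Sox1 and Brachyury. The cells were grown in serum with leukemia inhibitory factor, 3 µM CHIR99021, which blocks the kinase GSK3, and 0.8 µM PD184352, which blocks the kinase MEK. The deposited regions pool all 12 libraries and carry no level, score or library of origin, so the depth behind a region cannot be read from the list and the populations could not be compared at any locus. A region therefore marks a place called accessible in at least 1 library of the 12, and says nothing of the expression of its gene, which was not analysed here.

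Endoderm arises more than once in the mouse embryo. Primitive endoderm separates from the epiblast in the blastocyst under FGF signals, with Gata6, Gata4, Sox17, Sox7 and Pdgfra among its early genes, and goes on to form yolk sac tissue in which Hnf4a is active. Definitive endoderm forms later, from the primitive streak, again with Sox17, Foxa1 and Foxa2, and FOXA and GATA proteins are known for binding their sites in closed chromatin. SOX17 can pair with OCT4 on a composite DNA element whose spacing is tighter than the element read by SOX2 with OCT4.

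The sequences below show the central 300 bp of the regions, those at Gata6 left out, that held an octamer, a SOX-OCT composite, or a SOX motif together with a GATA or forkhead motif. They also show the stretch upstream of the Foxa2 start. All are from the RefSeq assembly GRCm38.p6, written 5′ to 3′, with motif matches on either strand in capitals. The motifs searched were the octamer (ATGCAAAT), the SOX motif (CCATTGT or CCTTTGT), the GATA motif (these letters with A or T before and A or G after them), the forkhead motif (TGTTTAC or TATTTAC), an ESRRB motif (TCAAGGTCA) and an HNF4 motif (CAAAGTCCA). The canonical composite was TTGT, any base and the octamer without its last letter, and the compressed composite lacked that base, so both can overlap a SOX motif. The windows at Sox17 were chr1:4544118-4544417 and chr1:4571682-4571981, both intergenic. The window at Hnf4a was chr2:163463204-163463503, also intergenic. Those at Pdgfra were chr5:75085160-75085459 and chr5:75210034-75210333, intergenic on either side of the gene, and the one at Foxa1 was chr12:57514489-57514788. These 6 are from the forward strand. The Foxa2 stretch, chr2:148046970-148047219, is from the reverse strand and ends at the base before the gene start.
Sox17, 46.9 kb upstream: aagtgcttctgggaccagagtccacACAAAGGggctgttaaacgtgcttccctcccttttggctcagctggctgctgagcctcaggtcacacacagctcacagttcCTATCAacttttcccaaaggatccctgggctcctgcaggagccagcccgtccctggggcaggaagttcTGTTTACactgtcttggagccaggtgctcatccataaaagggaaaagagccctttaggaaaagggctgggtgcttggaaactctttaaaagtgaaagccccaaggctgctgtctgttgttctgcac
Sox17, 74.5 kb upstream: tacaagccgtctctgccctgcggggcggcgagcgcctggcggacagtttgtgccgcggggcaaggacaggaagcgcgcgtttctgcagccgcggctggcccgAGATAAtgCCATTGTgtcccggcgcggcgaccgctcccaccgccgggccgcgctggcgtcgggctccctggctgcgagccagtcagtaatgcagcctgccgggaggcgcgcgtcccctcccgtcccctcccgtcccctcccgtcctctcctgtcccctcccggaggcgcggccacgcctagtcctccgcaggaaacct
Hnf4a, 43.5 kb upstream: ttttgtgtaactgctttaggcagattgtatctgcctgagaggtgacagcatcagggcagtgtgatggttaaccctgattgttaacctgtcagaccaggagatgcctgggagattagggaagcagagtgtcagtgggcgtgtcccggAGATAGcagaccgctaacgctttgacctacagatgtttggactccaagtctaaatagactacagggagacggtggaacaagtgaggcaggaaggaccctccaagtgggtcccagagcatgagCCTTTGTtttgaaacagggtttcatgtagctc
Pdgfra, 67.0 kb upstream: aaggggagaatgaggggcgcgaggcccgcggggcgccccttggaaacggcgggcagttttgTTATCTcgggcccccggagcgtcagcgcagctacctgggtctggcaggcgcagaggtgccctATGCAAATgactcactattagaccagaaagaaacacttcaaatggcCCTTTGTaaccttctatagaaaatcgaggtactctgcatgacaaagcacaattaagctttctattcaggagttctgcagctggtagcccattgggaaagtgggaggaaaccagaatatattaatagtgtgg
Pdgfra, 57.9 kb downstream: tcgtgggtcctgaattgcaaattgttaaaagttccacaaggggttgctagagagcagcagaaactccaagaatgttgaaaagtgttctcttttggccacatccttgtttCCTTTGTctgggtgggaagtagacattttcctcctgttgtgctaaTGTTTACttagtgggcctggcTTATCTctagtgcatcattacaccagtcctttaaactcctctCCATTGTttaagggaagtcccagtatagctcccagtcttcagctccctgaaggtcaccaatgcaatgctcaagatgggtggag
Foxa1, 32.3 kb downstream: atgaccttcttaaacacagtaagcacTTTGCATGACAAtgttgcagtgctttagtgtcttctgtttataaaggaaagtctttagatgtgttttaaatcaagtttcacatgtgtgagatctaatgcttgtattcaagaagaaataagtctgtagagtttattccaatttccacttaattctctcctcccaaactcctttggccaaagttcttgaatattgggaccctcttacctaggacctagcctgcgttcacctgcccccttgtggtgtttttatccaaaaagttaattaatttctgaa
Foxa2, upstream of the start: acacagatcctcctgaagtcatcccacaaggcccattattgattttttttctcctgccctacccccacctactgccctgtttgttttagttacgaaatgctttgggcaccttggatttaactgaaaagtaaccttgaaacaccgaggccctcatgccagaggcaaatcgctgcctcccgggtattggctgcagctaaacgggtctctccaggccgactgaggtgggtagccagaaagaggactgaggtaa

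The windows at Sox17 held 3 and 2 motif sites. In the 286-bp region 46.9 kb upstream, a SOX, a GATA and a forkhead site were spread over the window, while in the 857-bp region 74.5 kb upstream a GATA site and a SOX site lay nearly side by side. The Pdgfra locus had the only octamer among the 97 regions, in an 842-bp region 67.0 kb upstream of the gene start. A SOX and a GATA site lay in the same window. That region was closest to another gene, Gsx2, with its centre 9708 bp from the Gsx2 TSS. The region 57.9 kb downstream of the Pdgfra start held 2 SOX sites around a forkhead and a GATA site. The canonical composite at Foxa1 lay outside the 176-bp region itself, in the flank that the 300-bp window added. The Foxa2 stretch held none of the motifs. A match is a run of letters and was not tested as a site of binding.

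The number of regions at the 8 loci was close to that at other genes. The median over the 8 genes was 10 regions within 100 kb of a TSS, against 11 over all 21938 protein-coding genes, whose middle 50% ran from 6 to 17. Hnf4a had 24, more than 92.2% of protein-coding genes, and 6 other protein-coding genes had a TSS in its window. Foxa2 had 16 with no other protein-coding gene there, and Foxa1 had 14 with 1. Gata4 and Pdgfra had 10 each, Sox17 and Sox7 had 8 each, and Gata6 had the fewest, 7. Nearer the gene start the order of the genes was another one. Within 10 kb of the start, Foxa2 had 8 regions, more than 99.9% of protein-coding genes, and Foxa1 had 5, more than 97.1%. Gata6, Sox7 and Pdgfra had 4 each, more than 91.0%, while Sox17 and Hnf4a had 1 and Gata4 had none. The median over the 8 was 4 within 10 kb, against 1 over all protein-coding genes. Several of these regions lay close together, with gaps of 41, 4 and 16 bp at Foxa2, 283 and 241 bp at Pdgfra and 20 bp at Sox7. The counts within 10 kb were not repeated with such neighbours joined. At Foxa2, the regions 7404 to 8305 bp downstream of the start were closest to the non-coding gene 9030622O22Rik. None of these shares was tested.

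**Figure D1:**
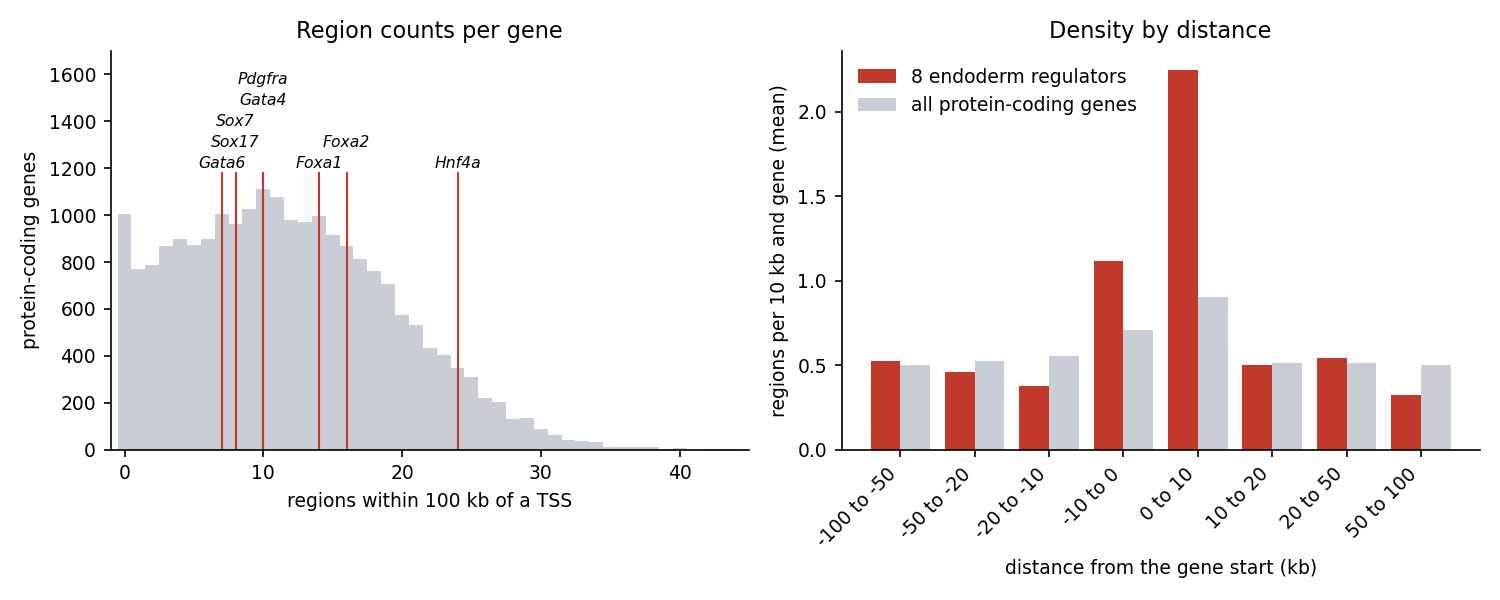
Left, number of protein-coding genes (bars) by number of regions within 100 kb of a TSS, with the 8 endoderm regulators marked by lines, from 7 at Gata6 to 24 at Hnf4a. Right, mean number of regions per 10 kb and gene by distance from the gene start in kb, negative upstream, for the 8 genes and all protein-coding genes. The 8 genes had 2.25 regions per 10 kb in the first 10 kb downstream of the start, against 0.904 over all protein-coding genes.

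By distance, the 8 genes lay above the average gene next to the start and near or below it elsewhere. The 8 genes had 1.12 regions per 10 kb and gene in the 10 kb upstream of the start and 2.25 in the 10 kb downstream, against 0.712 and 0.904 over all protein-coding genes. From 10 to 20 kb downstream the values were 0.5 and 0.513, and from 50 to 100 kb downstream 0.325 and 0.501. Foxa2 supplied 6 of the 18 regions in the first 10 kb downstream of a start, and Gata6, Foxa1 and Pdgfra 3 each. Regions lying close together were counted separately here too.

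**Figure D2:**
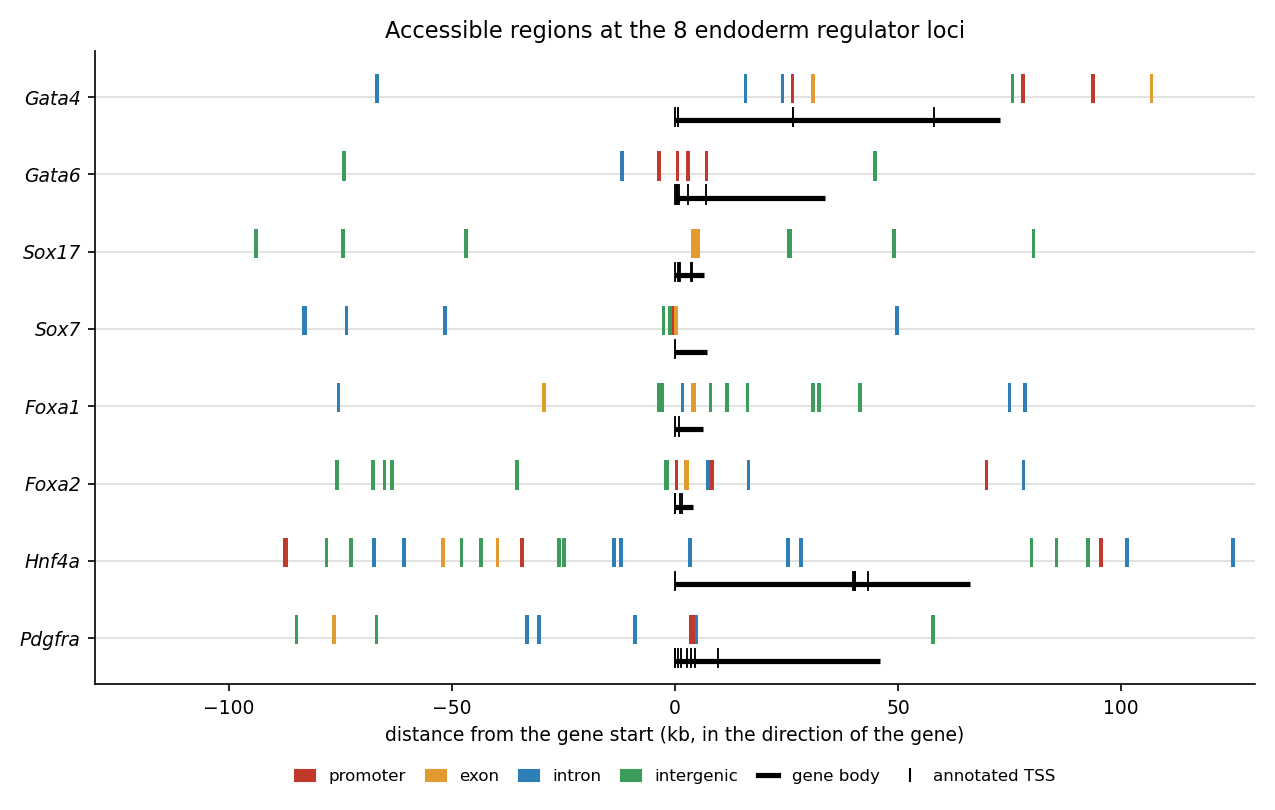
Regions at each locus (boxes, coloured by the class of the region's centre) against distance from the gene start in kb along the direction of the gene, with the gene body and annotated TSSs in black below. Narrow regions are drawn at a minimum width. Hnf4a had 24 regions, with a gap of 51202 bp over its inner starts, and Gata6 had 7.

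A region covered a TSS at 6 of the 8 genes, against 61.4% of all protein-coding genes. The uncovered genes were Foxa1 and Hnf4a. The start of the gene itself, the outermost annotated TSS, was covered at Sox7 alone, 1 of 8, against 52.5% of protein-coding genes. At Gata4, Gata6, Sox17, Foxa2 and Pdgfra the covered TSS was an internal one. Of the 14004 regions over a TSS of a protein-coding gene the median width was 733 bp, and 7 of the 8 regions over a TSS of these genes were narrower than that. The exception was at Sox17.

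**Figure D3:**
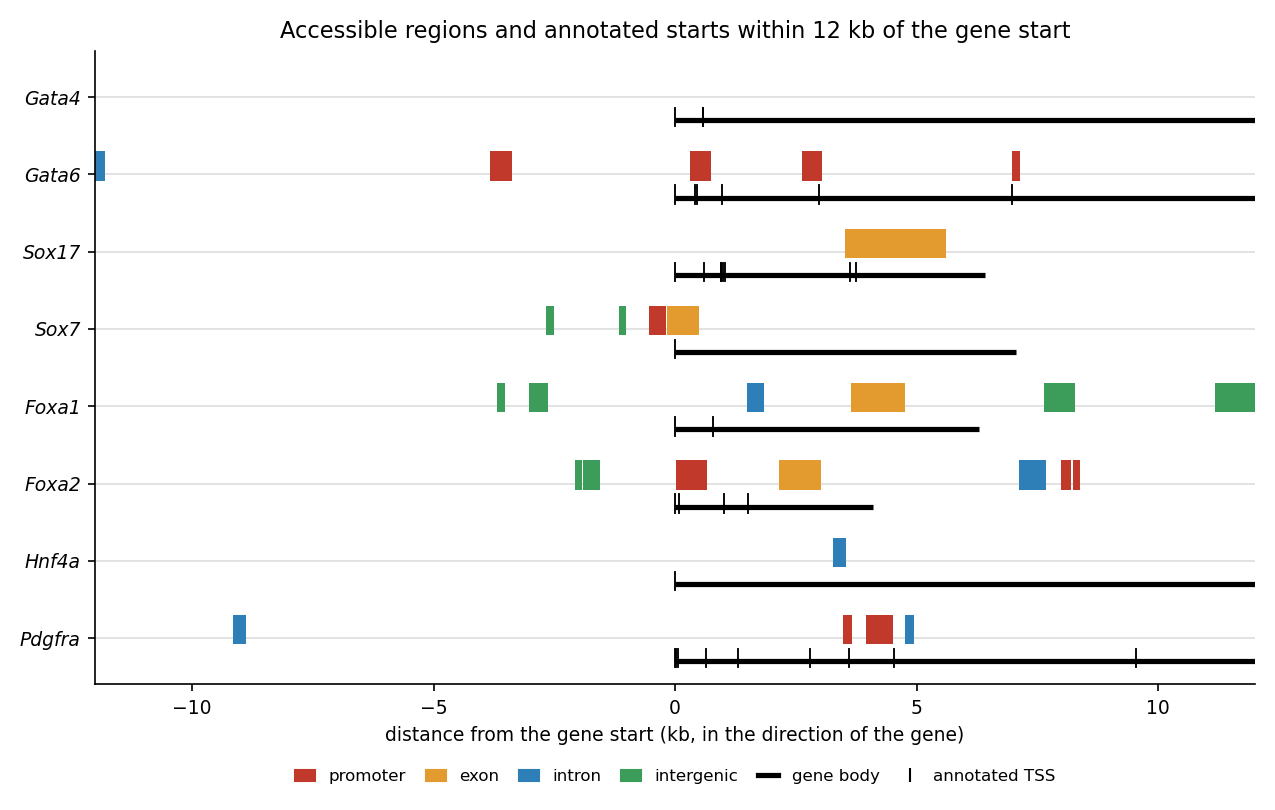
Regions (boxes, coloured by class, to scale) and annotated TSSs (ticks on the black gene body) near the start of each gene, against distance from the gene start in kb. The Sox17 region of 2110 bp lies over internal starts, the Sox7 start is inside a region, and no region is near the Gata4 start.

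Gata4 and Gata6 encode zinc-finger factors that bind the GATA motif. At Gata4 (chr14:63198922-63271692, reverse strand) 4 of 10 regions had Gata4 as the closest gene. A 546-bp promoter region, chr14:63245102-63245647, covered a pair of TSSs, at 63245271 and 63245248, that lie 26421 bp and 26444 bp inside the annotated gene. The outermost start, at 63271692, lay 15346 bp from the nearest region. Downstream of the covered TSSs a 539-bp exon region, chr14:63240493-63241031, held 496 bp of coding sequence, with a GC content of 72.2%. An 825-bp intron region, chr14:63255522-63256346, had a ratio of observed to expected CpG of 0.89, and a 146-bp region in an intron lay between it and the promoter. The Gata4 promoter region held the only HNF4 motif among the 97 regions. The other 6 regions lay closest to Fdft1 and Neil2 with 2 each, and to Ctsb and the non-coding gene Gm5463. Fdft1 encodes squalene synthase, Neil2 a DNA glycosylase and Ctsb the lysosomal protease cathepsin B, and regions covered or flanked their starts.

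At Gata6 (chr18:11052064-11085635, forward strand) all 7 regions had Gata6 as the closest protein-coding gene. Regions of 431, 403 and 165 bp lay over 4 annotated TSSs, 2 of them under the first region, chr18:11052369-11052799. The outermost start was 305 bp from a region. The 403-bp region lay wholly in coding sequence and was 73.9% GC, the highest of the 97. Upstream, a 456-bp region at chr18:11048224-11048679 held both a GATA and a forkhead motif, and was closest to the non-coding gene 1010001N08Rik, as were 2 other regions, the one over the first TSSs among them. The most distant regions, of 648 and 328 bp, each held a SOX motif. The 648-bp one was closest to the pseudogene AC140316.1, and the 328-bp one, 37913 bp downstream of the nearest Gata6 TSS, held a GATA motif too.

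Sox17 and Sox7 encode SOX factors of the F group. Sox17 (chr1:4490931-4497354, reverse strand) had the widest region at any of the loci. It measured 2110 bp, chr1:4491737-4493846, and 24 of the 81132 regions, itself included, were at least as wide. It held 1314 bp of coding sequence and 2078 bp of exon, and its GC content was 65.2%. It covered a pair of internal TSSs, at 4493735 and 4493604, and was the rank 13 widest of the 14004 regions over a coding gene's TSS. The 6 other Sox17 TSSs, from 4496330 to 4497354, lay 2484 to 3508 bp from its edge with no region over them. A pair of regions of 185 and 389 bp, 35 bp apart, lay 22050 and 21728 bp downstream of the nearest Sox17 TSS. The remaining 5 were intergenic, with Rp1, a photoreceptor gene, the non-coding gene Gm37323 and the pseudogene Gm38076 as the closest genes.

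Sox7 (chr14:63943673-63950732, forward strand) has 1 annotated TSS, and it was covered. The covering region, chr14:63943504-63944173, was 670 bp wide, with 238 bp of coding sequence and 83 bp of untranslated exon. A 356-bp promoter region ended 20 bp before it, and regions of 133 and 169 bp had their centres 1089 and 2583 bp upstream of the TSS. Thus 4 of the 8 regions at the locus had their centres within 2583 bp of the start. The other 4 were closest to Pinx1, which encodes a telomerase inhibitor, with 3, and to Rp1l1 with 1.

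Foxa1 and Foxa2 encode forkhead factors of gut, liver and lung. At Foxa1 (chr12:57540628-57546916, reverse strand) neither TSS was covered, and the nearest region lay 704 bp from one and 1499 bp from the other. The 1116-bp exon region chr12:57542165-57543280 consisted of coding sequence along its whole length. A 341-bp intron region with a CpG ratio of 0.955 lay between it and the TSSs. That intron region was the nearest one, with its centre 874 bp downstream of the nearer TSS and its edge 704 bp away. Upstream, 391-bp and 162-bp regions lay 2826 and 3601 bp from a TSS, and a 630-bp region 7161 bp downstream held a SOX motif. The other 9 of the 14 regions were closest to other genes, among them Gm2568 with 3, Gm37291 and Gm16246 with 2 each, 4921518K17Rik and the protein-coding gene Ttc6. By protein-coding genes alone, 12 of the 14 were closest to Foxa1.

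At Foxa2 (chr2:148042877-148046969, reverse strand) all 16 regions had Foxa2 as the closest protein-coding gene. The 634-bp promoter region chr2:148046307-148046940 covered the TSS at 148046896 and ended 29 bp short of the gene start. Regions of 562 and 309 bp, 4 bp apart, lay wholly in coding sequence, and those of 357 and 155 bp, 16 bp apart, lay 1726 and 1998 bp upstream. A further group of 3, of 142, 200 and 562 bp, lay 5899 to 6800 bp downstream of the nearest Foxa2 TSS, beyond the gene's end, at a start of the long non-coding gene 9030622O22Rik. That gene was the closest to 6 regions, Foxa2 to 5, Gm24221 to 3 and Gm14108 to 2.

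Hnf4a encodes a nuclear receptor of visceral endoderm, liver and gut, and its locus had the most regions and the fewest with the gene itself closest. Of 24 regions, 1 had Hnf4a as the closest gene and 3 had it as the closest protein-coding gene. Hnf4a (chr2:163506808-163572910, forward strand) has an outermost start at 163506808 and 4 others 40009 to 43275 bp downstream of it. No region covered any of these. The nearest was a 282-bp intron region, chr2:163510067-163510348, 3259 bp from the outermost start, and the 4 inner starts lay 11405 to 14671 bp from a region. Intron regions of 507 and 639 bp were closest to the antisense gene Hnf4aos. Neighbours took the rest: Ttpal 5, Gdap1l1 4, the antisense gene 2310001K24Rik 4, and Oser1, Fitm2, R3hdml and the antisense gene 0610039K10Rik 2 each. The widest were promoter regions of neighbours, 1131 bp at Oser1, 1067 bp at 0610039K10Rik and 918 bp at Ttpal.

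Pdgfra encodes the receptor for PDGF ligands that marks primitive endoderm. At Pdgfra (chr5:75152292-75198215, forward strand) 3 of 10 regions were closest to the gene, and they formed a row inside it. A 187-bp region covered a TSS 3607 bp downstream of the gene start. Next came a 558-bp region, chr5:75156245-75156802, which ended 31 bp before another TSS, and then one of 186 bp. Gaps of 283 and 241 bp separated them. The gene start itself lay 3483 bp from a region. Upstream, 3 regions were closest to Gsx2, a homeobox gene of the forebrain. One of them held 284 bp of coding sequence, and another was the region with the octamer. The others were closest to Gm19583 with 2, Olfr1401-ps1 and the microRNA gene Mir7025.

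By class, 18 of the 97 regions were centred in a promoter (1000 bp upstream to 100 bp downstream of any TSS), which is 18.6%, beside 17004 of all 81132. Exons held 12.4% against 8.76%, introns 28.9% against 35.0% and intergenic sequence 40.2% against 35.2%. In all, 16 of the 97 regions overlapped coding sequence, and no share over all regions is given for comparison. A member gene was the closest gene of 28 regions and the closest protein-coding gene of 59, while 31 other genes were closest to the remaining 69. The median width was 355 bp, the same as over all regions, with a range of 133 to 2110 bp. Regions under 200 bp made up 22.7% against 19.8%, and those over 1000 bp 5.15% against 4.75%. With promoters taken as 5 kb to both sides of a TSS, the order turned, with 55.7% of the 97 regions in promoters against 45.7% of all. Neither width nor class was tested.

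The regions at the 8 loci were richer in GC and CpG than the list as a whole. The median GC content was 56.1% at the 8 loci and 51.9% over all regions, and the median ratio of observed to expected CpG was 0.47 against 0.3. Regions with over 50% GC and a ratio over 0.6 made up 32.0% (31 of 97) against 19.7%. Within classes the CpG ratio was 0.802 against 0.685 in promoters, 0.744 against 0.495 in exons, 0.356 against 0.233 in introns and 0.286 against 0.231 in intergenic sequence. Repeats were sparser than in the list as a whole, except in promoters. Regions with over 50% of bases masked as repeats made up 3.09% (3 of 97) against 13.7%, and regions without any made up 36.1% against 26.2%. The median share of masked bases was 4.76% against 15.2% in intergenic sequence, 4.39% against 10.9% in introns and 3.06% against 3.84% in exons, but 8.12% against 5.02% in promoters. These shares were not tested.

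**Figure D4:**
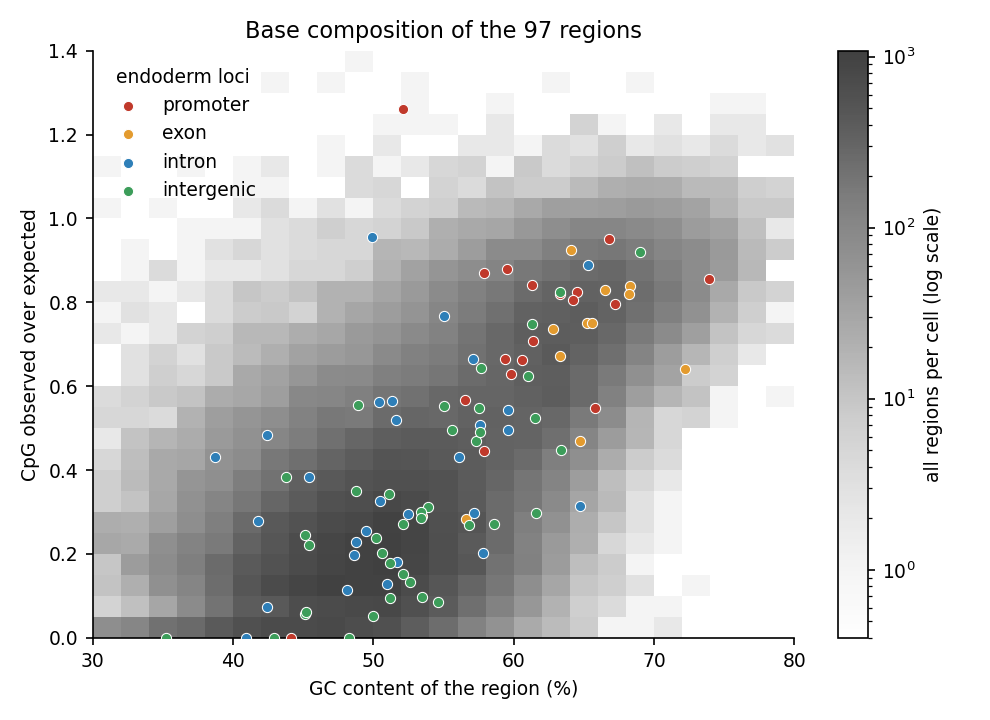
GC content in percent (x axis) against the ratio of observed to expected CpG (y axis) for the 97 regions, coloured by class, over the number of all regions in each cell (grey, log scale). Promoter and exon regions of the 8 loci lie mostly at upper right, with median ratios of 0.802 and 0.744.

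The pluripotency factors SOX2 and OCT4 bind the SOX motif and the octamer. A SOX motif lay in the central 300 bp of 12 of the 97 regions (12.4%), against 12.7% of all regions, and in the central 200 bp of 5 (5.15%) against 8.99%. The octamer lay in the central 300 bp of 1 region against 2.15%, a count too small to read a difference from. The ESRRB motif, named for an orphan receptor of the naive pluripotent state, lay in the central 300 bp of no region against 1.84%, and anywhere in the region in 2 of the 97 (2.06%) against 2.24%. The canonical composite was found in 1 of the 97 against 0.0912%, and in 0 with the central 200 bp (against 0.0666%) or the whole region (against 0.11%). The compressed one was found in 0 against 0.0234%. For the endoderm factors themselves, a GATA motif lay in the central 300 bp of 34 regions (35.1%) against 29.2%. With the central 200 bp the order turned, with 17.5% of the 97 regions against 20.2% of all. In the central 300 bp there was a forkhead motif in 5 against 6.71% and the HNF4 motif in 1 against 0.392%. By locus, a GATA motif lay in the central 300 bp of 8 of 24 regions at Hnf4a, 5 of 8 at Sox17 and 5 of 14 at Foxa1. The counts were 5 of 16 at Foxa2, 4 of 10 at Pdgfra, 3 of 8 at Sox7, 2 of 10 at Gata4 and 2 of 7 at Gata6. The share over all regions was 29.2%, as above. Such a window takes in flank where a region is narrower. The GATA sites counted for a 145-bp region at Sox17, a 146-bp region at Gata4 and a 200-bp region at Foxa2 lay in that flank. So did the SOX site of a 187-bp region at Pdgfra and the forkhead site of a 133-bp region at Sox7. Octamer, SOX, GATA and forkhead motifs in these windows were counted together as 4 families. Of the 97 regions, 55 had none of them (56.7% against 58.0% of all regions) and 35 had 1 (36.1% against 34.1%). Another 4 had 2 and 3 had 3. Regions with 3 families made up 3.09% against 0.826% of all regions, and those with 2 made up 4.12% against 7.05%. These counts of 3 and 4 regions are too small to read a difference from. The 3 regions with 3 families were those 46.9 kb upstream of Sox17 and 67.0 kb upstream and 57.9 kb downstream of Pdgfra shown above. None of the shares was tested.

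Among related genes, the paralogues of the 8 had a median of 15.5 regions within 100 kb, from 4 at Kdr to 25 at Foxa3, and 8 of 10 had a covered TSS, Gata1 and Gata2 being the exceptions. Genes of primitive and extraembryonic endoderm, mainly basement membrane proteins and endocytic receptors, had a median of 13.5. They ran from 8 at Lamb1 and Cubn to 24 at Lamc1, and 10 of 12 had a covered TSS. Cubn and Amn, which together form the receptor cubam, had none. Definitive endoderm genes had a median of 11.5, from 3 at Cer1, a secreted inhibitor of Nodal, to 25 at Foxa3, and Cer1 was the exception among 9 of 10 covered. The ligands of PDGF receptors had a median of 16 and ran from 1 at Pdgfd to 20 at Pdgfb, and 3 of 4 were covered, without Pdgfb. For comparison, the pluripotency genes had a median of 24, from 12 at Sox2 to 32 at Nanog, of which Pou5f1 alone had a covered TSS. Mesoderm and primitive streak genes had a median of 17.5, from 11 at Msgn1 to 20 at T, and 4 of 8 were covered, without Mesp1, Tbx6, Msgn1 and Hand1. Trophectoderm genes had a median of 17.5, from 14 at Gata3 and Tfap2a to 27 at Tead4, and 8 of 8 were covered. The 8 endoderm regulators, with a median of 10, thus had the lowest median of these lists, which share some genes. Within 10 kb of the gene start their median of 4 was the highest, against 2 to 3.5 for the other lists. Regions lying close together were counted separately in these medians, which were not repeated with neighbours joined. Over all protein-coding genes, 61.4% had a covered TSS. The lists were not tested against that share or against each other.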

How the data were processed

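ATAC-seq was analysed in 12 libraries; the 4 ChIP-seq samples were not analysed here. The authors aligned reads to mm10 with STAR (2.5.3a in the submitters' processing notes), removed duplicates with Picard, called peaks per library with MACS2 (2.1.1.20160309), merged them with BEDOPS and discarded those overlapping input peaks. No shift for Tn5 is named in the sources used here. The deposited list holds chromosome, start and end only. No coordinate exceeded its chromosome.

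Regions were classed at the centre and compared with GENCODE M21 using Python (3.11.15), numpy (2.4.6), pandas (2.3.3), scipy (1.17.1) and pysam (0.24.0), and drawn with matplotlib (3.10.9). Counting functions were tested on simulated data. Sequences came from RefSeq GRCm38.p6, whose promoter table matched 4 of the 8 genes (Foxa1, Foxa2, Hnf4a, Pdgfra). Sequences at Gata6 and 1 other sequence at Pdgfra are not reported here, and upstream stretches were taken only for genes with a covered TSS. The reference is C57BL/6J, not CGR8. No test was run. Named genes are the 8 members, other closest genes, and, from each list, those with the most and fewest regions or no covered TSS. Members and lists were chosen with earlier results of these data known. Alternatives varied windows, starts, region widths and joining, promoter limits and motif windows.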

Additional observations from a re-analysis of the deposited data

How the results depend on the processing

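The total of 97 regions became 41 with a 20 kb window and 152 with a 200 kb window, and ran from 66 to 97 under the other alternatives. Of the 8 genes, 3 had more regions than the median protein-coding gene within 100 kb, 5 within 50 kb, 7 within 20 kb and, in an alternative chosen after seeing the data, 5 within 10 kb of the gene start. That measure, the number of genes above the median, was itself chosen after the counts at the loci were seen. Covered starts fell from 6 genes to 1 with the gene start alone, and to 1 with the first protein-coding start alone, also chosen after seeing the data. RefSeq starts, added then too, gave no value because the promoter table matched 4 of the 8 genes. Promoter regions numbered 54 with promoters of 5 kb to both sides (55.7% against 45.7% of all regions). A member was closest to 59 regions when protein-coding genes alone were used. The median width was 438 bp without regions under 200 bp, which removes the narrowest by construction. An octamer or SOX motif lay in 12.4% of the regions against 14.5% of all, and in 5.15% against 10.3% with the central 200 bp, a shorter window. Where no value bears on it, the cause was not tested. Of 64 alternative counts for single loci, 18 moved by over 1.5 times. No paired analysis was possible because regions carry no measurement for single libraries. The list gives no depth and lacks peaks removed for overlap with input, so a start without a region is not shown to be closed.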
